A study of Mus musculus with 70 samples.

Results

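The data compared the basolateral amygdala of HAB mice with that of LAB mice, on 10 of the 70 arrays of the series. The members were chosen by their titles: the 5 BLA arrays with HAB in Cy3 and LAB in Cy5, and the 5 BLA arrays with HAB in Cy5 and LAB in Cy3. HAB and LAB are lines of CD-1 (ICR) mice bred for high and for low anxiety-related behavior, so both lines are selected and neither is an unselected control. The tissue came from male mice aged 10 weeks under basal conditions, 6 per line. The punches were taken bilaterally and covered the basolateral and the lateral nuclei. The same mice also gave the central amygdala (CeA), the medial amygdala (MeA), the nucleus accumbens (NAc), the cingulate cortex (Cg), the paraventricular nucleus (PVN) and the supraoptic nucleus (SON), with 10 arrays for each of these 6 regions.

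RNA from the 6 mice of a line was combined into 1 pool per line and region, and the 10 arrays are repeat hybridizations of the same 2 pools. The spread between arrays is therefore technical, and no test of HAB mice against LAB mice can be made with 1 biological sample per line. The p-values given below, from limma with Benjamini-Hochberg adjustment over 22824 probes, compare these 2 pools of aRNA and not the lines. Each array carried 1 spot for each of the 22824 cDNA probes, and the value of a spot was the log2 ratio of HAB to LAB after normalization. Values are means over both dye orientations ± SE from limma. In bulk tissue, fewer cells of a type and less RNA per cell cannot be told apart.

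The basolateral amygdala receives sensory input from cortex and thalamus and drives the central amygdala, and it is required for learned fear. Most of its neurons are glutamatergic and resemble those of the cortex, with a minority of GABAergic interneurons. Around its neurons lie astrocytes, microglia, vessels and the myelin of the capsule fibers that enclose it. It lies near the temporal horn of the lateral ventricle, where the choroid plexus makes cerebrospinal fluid and secretes transthyretin (Ttr), the carrier of thyroid hormone and of the retinol-binding protein.

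The median raw intensity lay between 251.2 and 672.2 in HAB channels and between 311 and 604.5 in LAB channels. Between 31.2 and 55.67% of probes in HAB channels, and between 31.87 and 54.57% in LAB channels, exceeded the empty spots of their array. In all, 11451 probes counted as above the empty spots in the BLA, on at least 5 of the 10 channels of a line. Arrays of the same dye orientation correlated with a median r of 0.287 across probes, and arrays of opposite orientations with a median r of -0.194. Both orientations were therefore weighted equally. Of the cortical and basolateral excitatory markers, 12 of 16 were on the array. Over both pools, 7 of these 12 were brighter in the BLA than in the other regions and 5 were dimmer, from -0.93 for Camk2a to 0.99 for Mef2c (log2 levels), with a median of 0.02. Only Mef2c, Lypd1, Etv1, Ccn3 and Nrgn were above the empty spots in the BLA, a filter that favors genes bright there, and their median was 0.38. The defining markers Slc17a7, Camk2a, Neurod2, Tbr1 and Emx1 were not above the empty spots on at least 5 channels of either line, so the label rests on few genes. Of 11 measured markers of the central amygdala and striatum, 7 were brighter in the BLA than in the other regions and 4 were dimmer, with a median of 0.09. By the same filter, 6 of these were above the empty spots, and 4 of the 6 were brighter in the BLA. Their median was 0.66, higher than the 0.38 of the basolateral markers.

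Few probes separated the 2 pools. A rule of size asked for a mean past 1.3-fold and for the same sign on all 10 arrays. By it, 13 probes were higher in HAB (0.057% of 22824) and 38 were lower (0.166%). By limma, at an adjusted p under 0.05, 8 probes were higher in HAB (0.0351%) and 15 were lower (0.0657%), and 1568 probes (6.87%) had an unadjusted p under 0.05. Both rules took 18 probes, and either rule took 56. The split by the size rule differed between settings, and the cause was not tested. It was 27 higher and 27 lower with loess but no block medians, and 34 and 17 with median centring. It was 19 and 22 in the authors' values, which were complete for only 9291 probes, so the set of probes differed there too. By limma it was 20 and 20 in the authors' values. The 10 arrays carry 2 header dates, each with both dye orientations. All 56 probes kept the direction of their mean on the 7 arrays of the first date and on the 3 of the second. For the 51 probes past the size rule this was fixed in advance, since that rule asks for the same sign on all 10 arrays. Only the 5 probes past limma alone could have changed. On the first date alone, 17 of the 23 probes past limma still passed, and on the second, with 3 arrays, none did. With the header date as a block over all 10 arrays, limma called 7 higher and 13 lower, and Zfp672, Ints1 and Epc2 no longer passed (adjusted p = 0.103, 0.14 and 0.135). By contrast, 20800 probes (91.1%) lay within 1.3-fold. The weakest probes inside the size rule had means of -0.402 and 0.397, and the strongest probe with all arrays in 1 direction outside it had 0.374. The median SE of a probe was 0.185, and the smallest mean past limma was 0.875 in size, so limma called no smaller difference on these arrays.

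**Figure D1:**
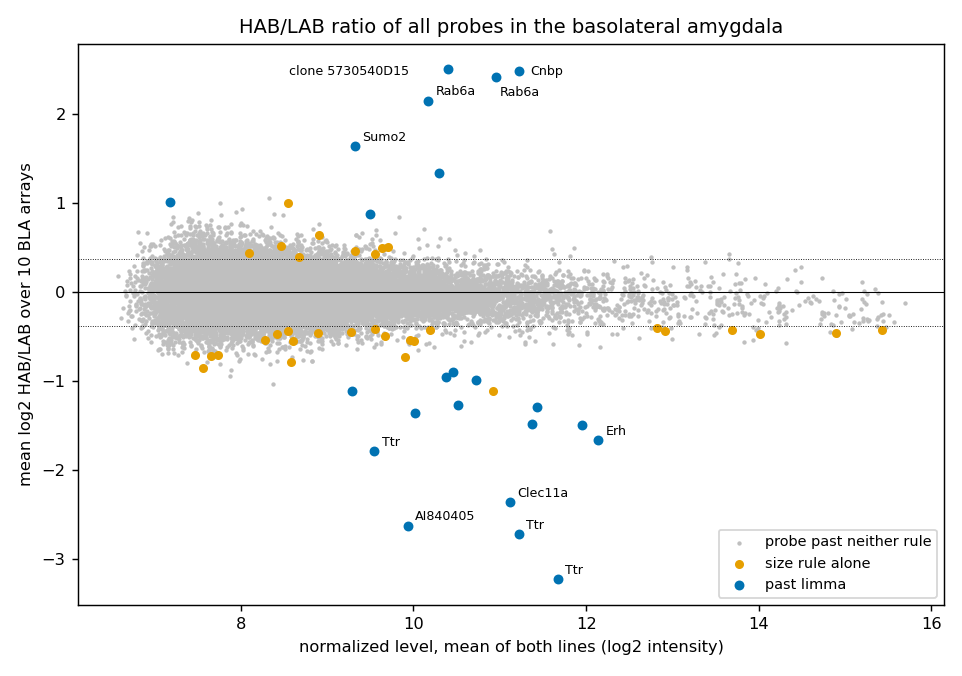
Mean log2 HAB/LAB of 22824 probes over the 10 BLA arrays (vertical axis) against the mean normalized level of both lines (horizontal axis, log2 intensity). Blue points passed limma (8 above and 15 below 0), orange points passed the size rule alone, grey points passed neither, and dotted lines mark 1.3-fold.

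The 2 largest differences in the lower direction were on probes of Ttr, and a second choroid plexus gene, Enpp2, was also lower. The study reports that its follow-up did not bear out a Ttr difference in the BLA. Of the 3 probes for Ttr, all were lower in HAB on 10 of 10 arrays, and all passed limma. On the first, the log2 HAB/LAB was -3.91 on the lowest array, -3.35 at the median and -1.92 on the highest. Its normalized level was 8.78, 9.97 and 11.66 (lowest, median and highest array) in HAB, against 12.69, 13.37 and 13.95 in LAB. The levels of the 2 pools did not overlap. The difference was 9.34-fold (-3.22 ± 0.18, limma adjusted p = 1.7e-07). The second probe had -4.21, -2.58 and -1.99, with HAB levels of 8.63 to 11.23 against LAB levels of 12.10 to 13.22 (-2.72 ± 0.20, adjusted p = 2.5e-06). The third had -2.58, -1.75 and -0.90 and was above the empty spots on 3 of 10 HAB channels, against 10 of 10 LAB channels (-1.79 ± 0.17, adjusted p = 5.5e-05).

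In BLA tissue, Ttr was brighter in both pools than in any other region on its first 2 probes, as the plot of levels by region shows. On the first, the mean level was 10.06 in HAB and 13.29 in LAB in the BLA, and between 7.09 and 8.53 in either line in the other regions. On the second, it was 9.86 in HAB and 12.58 in LAB in the BLA, against 7.46 to 8.14 elsewhere. The third probe was brighter in the BLA in LAB alone. Its mean level there was 8.65 in HAB and 10.44 in LAB, against 8.63 to 9.91 in either line elsewhere. The log2 HAB/LAB of the first probe was between -0.57 and 0.28 in the other 6 regions, and that of the second between -0.04 and 0.30. The difference of the BLA from the mean of the other regions was -3.13 ± 0.22 for the first (limma adjusted p = 3.4e-17), -2.77 ± 0.23 for the second (1.1e-14) and -1.85 ± 0.17 for the third (3.6e-13). The BLA arrays carry 2 dates in their headers that no array of another region carries, so the date and the region cannot be told apart here.

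Enpp2, which encodes the secreted lysophospholipase autotaxin and is abundant in choroid plexus and in oligodendrocytes, had 3 probes. On the first, the log2 HAB/LAB was -2.34, -1.44 and -1.09 (lowest, median and highest array). Its HAB levels, 10.32 to 12.01, lay below its LAB levels, 12.07 to 13.38, without overlap. The difference was 2.81-fold (-1.49 ± 0.15, limma adjusted p = 8.6e-05), and it was lower in the BLA than in the other regions by -1.63 ± 0.13 (adjusted p = 1.1e-15). The second probe was lower in HAB on 10 of 10 arrays, at -1.11 ± 0.22, and passed the size rule but not limma (adjusted p = 0.099). Without HAB in Cy5 replicate 3 it passed limma as well (-1.30, adjusted p = 0.00642). The third was lower on 5 of 10 arrays, at -0.22 ± 0.20 (adjusted p = 0.88). The BLA level of the first probe was 11.21 in HAB, at the lower end of the other regions, and 12.70 in LAB, above them, against 11.21 to 12.54 elsewhere in either line.

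The other genes of the choroid plexus and ependyma list lay closer to 0. Of its 22 genes, 14 were measured, taking for each gene the probe that was brightest over the series. The mean was below 0 in 9 of these 14, with a median of -0.12, and without Ttr and Enpp2 it was below 0 in 7 of 12, with a median of -0.05 and a range of -0.53 to 0.42. The mean level of the 14 genes ran from 8.42 to 8.93 in HAB and from 8.435 to 9.185 in LAB, and was lower in HAB on 9 of 10 arrays. Without Ttr and Enpp2 it ran from 8.155 to 8.59 in HAB and from 7.98 to 8.79 in LAB, and was lower in HAB on 7 of 10 arrays. In the BLA 6 of the 14 were above the empty spots, of which Ttr, by this probe, and Folr1 were so on at least 5 channels of LAB alone. Over both pools, 8 of the 14 genes were brighter in the BLA than in the other regions and 6 were dimmer. How much choroid plexus each punch held was not tested.

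**Figure D2:**
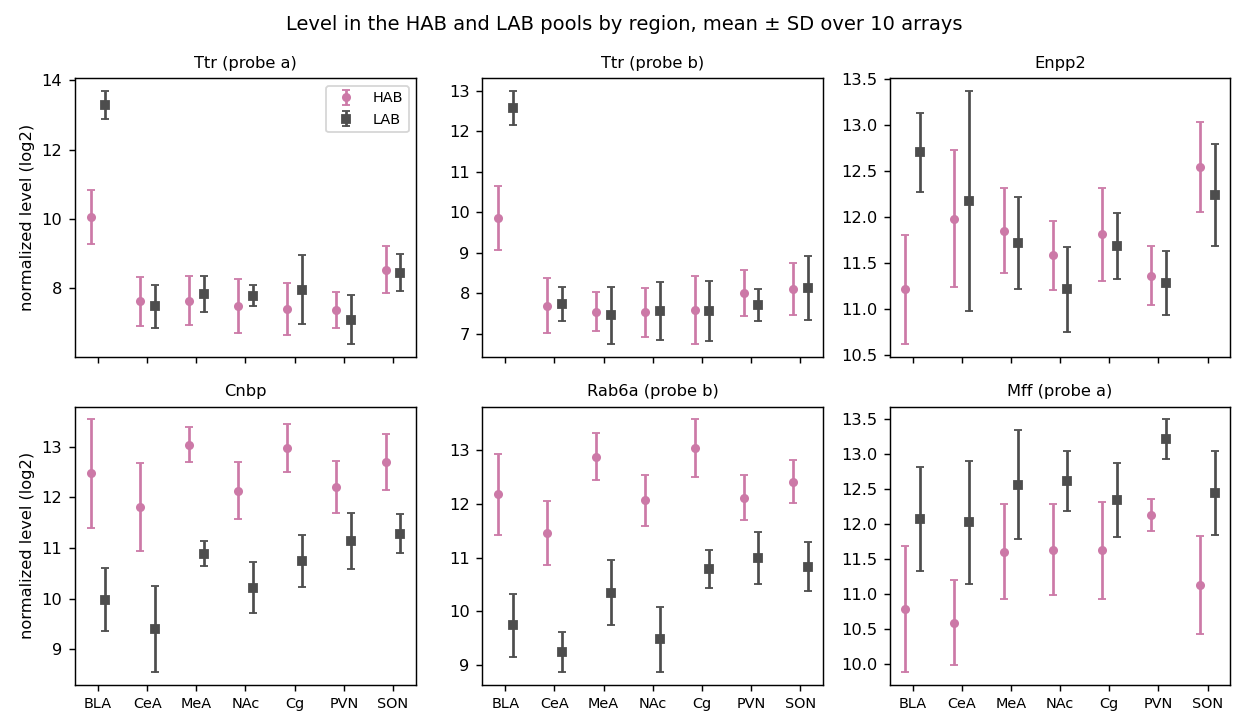
Normalized level (log2 intensity) of 6 probes in the 7 regions, with the HAB pool as circles and the LAB pool as squares, mean ± SD over 10 arrays. Both Ttr probes drawn here stood out in the BLA, where LAB exceeded HAB, while Cnbp and Rab6a were higher and Mff lower in HAB in every region. The third Ttr probe is not drawn.

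Another 5 probes were lower in HAB in the BLA and below the mean of the other regions. The EST AI840405, which the annotation used does not name, had log2 HAB/LAB of -3.66 to -1.84. It was above the empty spots on 4 channels of HAB and 10 of LAB, with levels of 7.44 to 10.07 in HAB and 9.86 to 12.29 in LAB. These overlapped slightly, although every array was lower in HAB (-2.62 ± 0.18, limma adjusted p = 1.2e-06). As with Ttr, its LAB level in the BLA (mean 11.25) exceeded those of the other regions, which lay between 7.41 and 8.21 in either line. Clec11a, a secreted growth factor for blood and bone progenitors, had -3.10, -2.55 and -1.24 (lowest, median and highest). Its levels of 8.42 to 10.81 in HAB and 11.18 to 13.19 in LAB did not overlap (-2.36 ± 0.19, adjusted p = 5.2e-06). In the other regions its level lay between 7.72 and 9.23, so that the BLA was brighter in both pools. A second Clec11a probe did not exceed the empty spots on any channel and read -0.46 ± 0.17 (adjusted p = 0.63).

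Erh, a small nuclear protein that binds RNA-processing factors, read -2.77, -1.52 and -0.96. Its HAB levels of 9.98 to 12.20 lay below its LAB levels of 12.42 to 13.95 (-1.66 ± 0.17, limma adjusted p = 8.6e-05). Its second probe exceeded the empty spots on 9 HAB and on 8 LAB channels and showed no difference, at 0.00 ± 0.16, so the 2 probes disagreed. An EST without a name read -2.15, -1.50 and -0.84 (-1.48 ± 0.15, adjusted p = 7.4e-05). Ints1, the largest subunit of the Integrator complex that processes small nuclear RNAs, was lower on 8 of 10 arrays (-0.90 ± 0.15, adjusted p = 0.025). Its arrays with HAB in Cy5 were all lower, while those with HAB in Cy3 averaged -0.09. In the CeA it was lower as well, at -0.54 and on 9 of 10 arrays, while the other 5 regions lay between -0.10 and 0.51. Its call stood only without HAB in Cy5 replicate 2, and was lost when any of the other 9 arrays was left out (adjusted p between 0.0532 and 0.106). Against the mean of the other 6 regions, the differences were -2.62 ± 0.25 for AI840405, -2.33 ± 0.22 for Clec11a, -1.75 ± 0.14 for Erh, -1.71 ± 0.14 for the EST and -0.997 ± 0.15 for Ints1. All 5 passed limma, with adjusted p between 1.1e-15 and 1.5e-05.

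**Figure D3:**
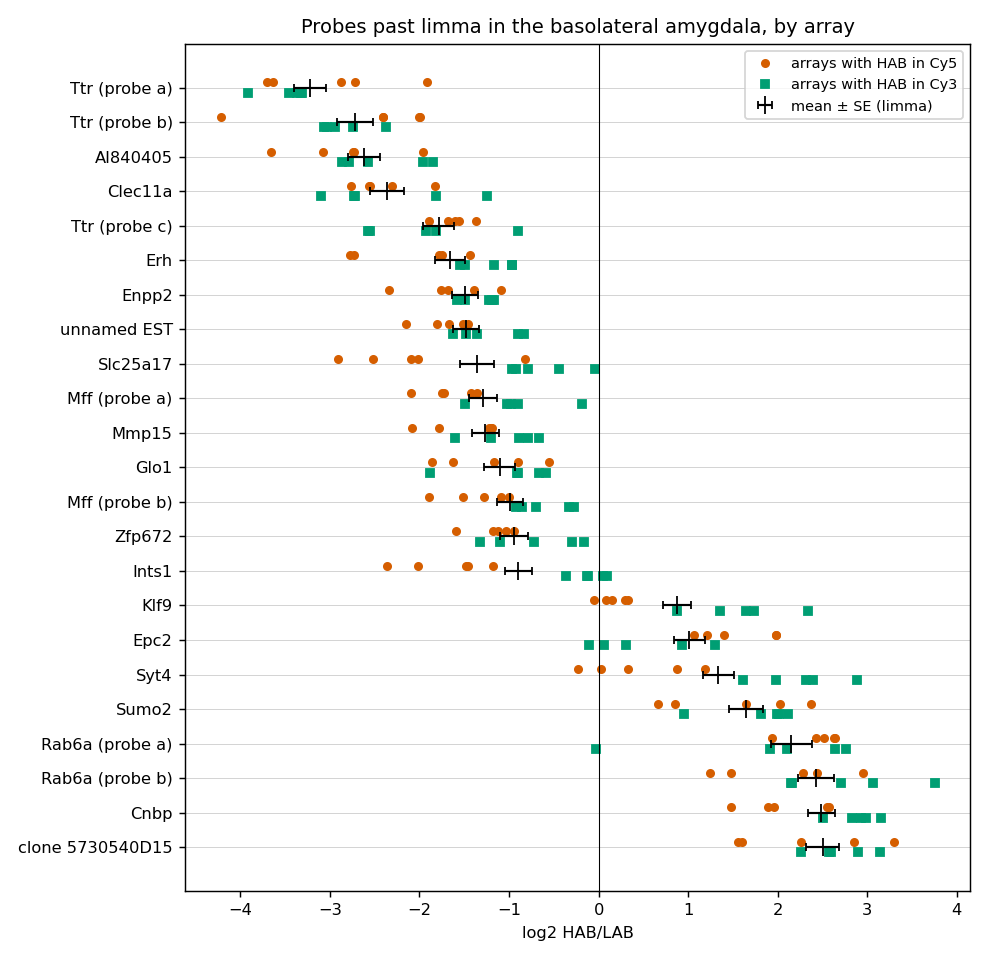
Log2 HAB/LAB on each of the 10 BLA arrays for the 23 probes that passed limma, with arrays of HAB in Cy5 as circles and of HAB in Cy3 as squares. The cross is the mean ± SE from limma, and letters mark probes of the same gene. Ttr, AI840405 and Clec11a lay below -1 on every array except for 1 Ttr probe c array, while Syt4, Klf9 and Ints1 separated by dye orientation. Slc25a17 (-0.63) and Epc2 (0.50) were also weaker over the arrays with HAB in Cy3 than over all 10.

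A second group of probes was lower in HAB in every region. Slc25a17, a carrier of the peroxisomal membrane, read -2.91, -0.95 and -0.04 in the BLA. Over the arrays with HAB in Cy3 its mean was -0.63, and these did not pass limma on their own (adjusted p = 0.162). Its HAB levels of 8.08 to 10.11 and its LAB levels of 10.04 to 11.66 overlapped slightly (-1.35 ± 0.19, limma adjusted p = 0.0038). On the 60 arrays of other regions it was lower in HAB on all 60, with region means between -2.52 and -1.36. However, the second Slc25a17 probe went the other way, at 0.47 ± 0.15 (adjusted p = 0.56). It was above the empty spots on 6 channels of HAB and 2 of LAB.

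Mff, the receptor that brings the fission enzyme Drp1 to mitochondria, passed limma on 2 of its 3 probes. The first read -2.09, -1.39 and -0.19 (-1.29 ± 0.15, adjusted p = 0.00063) and was lower in HAB on 60 of 60 arrays of other regions. The second read -1.90, -0.96 and -0.28 (-0.99 ± 0.15, adjusted p = 0.0074) and was lower on 59 of 60. The third was at -0.28 ± 0.14 (adjusted p = 0.73). Mmp15, a membrane-bound matrix metalloproteinase, read -2.08, -1.20 and -0.67. Its HAB levels of 8.96 to 10.50 lay below its LAB levels of 10.52 to 11.84 (-1.26 ± 0.15, adjusted p = 0.00083), and it was lower on 58 of 60 other arrays. Zfp672, a zinc finger protein, read -1.59, -1.07 and -0.16 (-0.95 ± 0.16, adjusted p = 0.02), and was lower on 59 of 60. Cfap36, a protein of cilia, passed the size rule alone, at -0.73 ± 0.16 (adjusted p = 0.27), and was lower on 58 of 60. For these 6 probes, the BLA did not pass against the mean of the other regions (adjusted p between 0.37 and 0.99), with differences between -0.24 and 0.59. The Zfp672 call was lost when any of 7 arrays was left out (adjusted p between 0.0543 and 0.0927), and stood without HAB in Cy3 replicate 3 or 4 or HAB in Cy5 replicate 4.

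Glo1, which encodes glyoxalase I and detoxifies methylglyoxal, is an earlier candidate from this mouse model. Its probe past limma read -1.88, -0.90 and -0.56, and was above the empty spots on 5 channels of HAB and 10 of LAB (-1.10 ± 0.17, adjusted p = 0.013). Without HAB in Cy5 replicate 1 its adjusted p was 0.0631, and without HAB in Cy5 replicate 4 it was 0.0527. It was lower in HAB on 52 of 60 arrays of other regions, with means between -1.04 and -0.20. The other 4 Glo1 probes were also below 0, at -0.64 ± 0.19, -0.56 ± 0.16, -0.29 ± 0.15 and -0.16 ± 0.15, and none passed. Enoph1, the other earlier candidate above the empty spots, was at -0.12 ± 0.14 (adjusted p = 0.91). Avp, which encodes vasopressin, exceeded the empty spots on 2 channels of each line in the BLA and read 0.01 ± 0.18.

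The largest differences in the higher direction were shared by all regions. The RIKEN clone 5730540D15, which has no gene name here, read 1.55, 2.58 and 3.30 (2.50 ± 0.18, limma adjusted p = 2.5e-06). Cnbp, a zinc finger protein that binds single-stranded nucleic acids and promotes translation, read 1.48, 2.56 and 3.15 on its first probe. Its level was 10.67 to 13.82 in HAB and 8.71 to 10.77 in LAB, overlapping only at the ends, and the difference was 5.6-fold (2.48 ± 0.15, adjusted p = 4.1e-07). The second Cnbp probe, above the empty spots on all channels, read -0.25 ± 0.14 (adjusted p = 0.79) and was lower in HAB on 5 of 10 arrays. The first was higher in the BLA than in the mean of the other regions by 0.63 ± 0.15 (adjusted p = 0.034). That difference was no longer past the threshold when any of 7 arrays was left out (adjusted p between 0.055 and 0.15), and stood without HAB in Cy3 replicate 2 or HAB in Cy5 replicate 1 or 3.

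Rab6a, a small GTPase of Golgi transport, had 2 probes past limma and 2 that showed no difference. The probe with the larger ratio read 1.25, 2.36 and 3.75, with levels of 10.97 to 12.85 in HAB and 8.55 to 10.66 in LAB that did not overlap (2.42 ± 0.20, adjusted p = 9.6e-06). The other, drawn as probe a, read -0.03, 2.47 and 2.76 and was higher on 9 of 10 arrays (2.15 ± 0.23, adjusted p = 0.00013). The remaining 2 probes were at -0.10 ± 0.18 and -0.14 ± 0.15. Sumo2, a ubiquitin-like protein modifier, read 0.66, 1.90 and 2.37 and was above the empty spots on 8 channels of HAB and 4 of LAB (1.64 ± 0.19, adjusted p = 0.00043). Its second probe was at -0.28 ± 0.21, above the empty spots on 2 channels of each line. The clone, both Rab6a probes and Sumo2 were also higher in the BLA than in the mean of the other 6 regions, by 0.09 to 0.41, without passing limma. For both Rab6a probes and Sumo2, the MeA and the NAc had higher means than the BLA. In the other 6 regions, none of the 60 arrays was lower in HAB for the clone, Cnbp and both Rab6a probes, and 2 were for Sumo2. The PVN had the lowest mean of the 7 regions for all 5 probes, from 0.82 for Sumo2 to 1.12 for Rab6a.

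**Figure D4:**
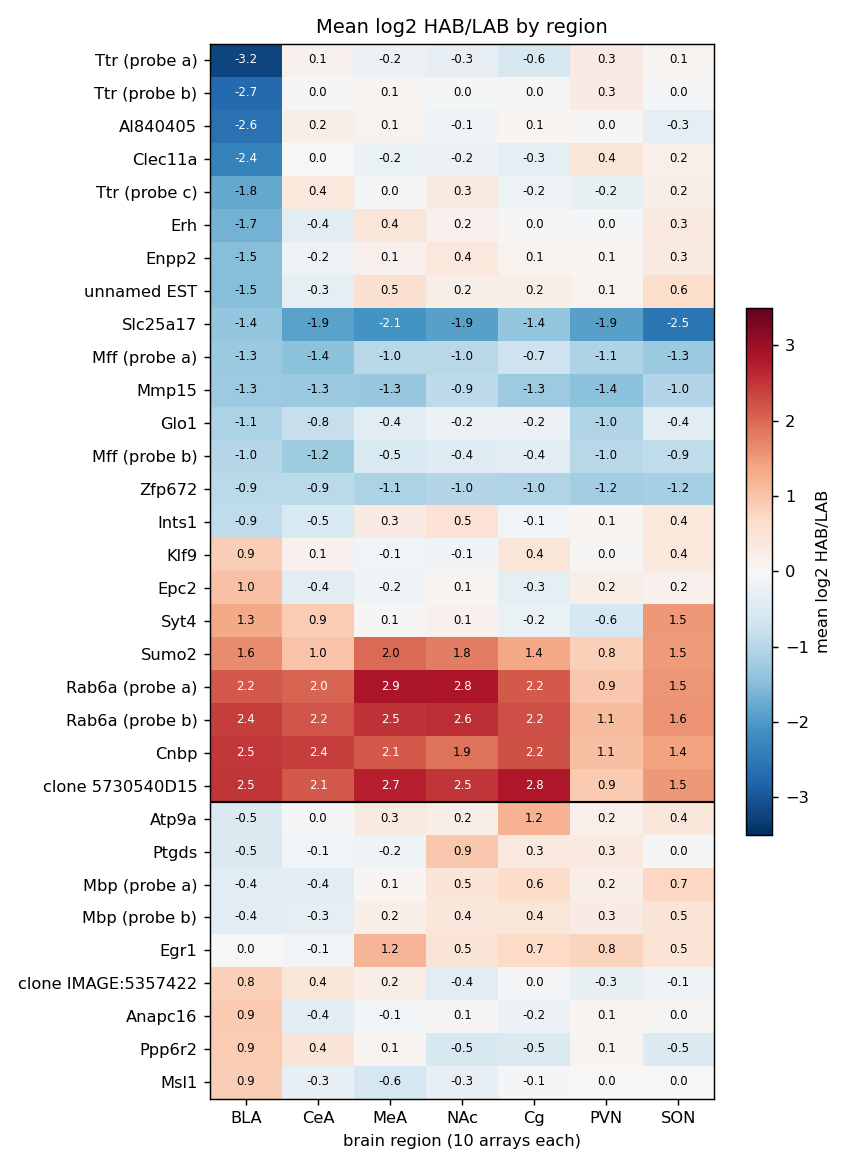
Mean log2 HAB/LAB by region (columns, 10 arrays each) for the probes past limma in the BLA (above the black line) and for probes whose BLA ratio passed against the other 6 regions (below it). Blue is lower and red is higher in HAB. Ttr, Clec11a, Erh and Enpp2 were below -1 in the BLA column alone, whereas Slc25a17, Mff, Mmp15, Zfp672, Cnbp, Rab6a and Sumo2 kept their direction in all 7.

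The 3 other probes past limma in the higher direction each had 1 array in the opposite direction. Syt4, a synaptotagmin of dense-core vesicles, read -0.23, 1.40 and 2.88 on the probe that passed (1.34 ± 0.18, limma adjusted p = 0.0018). Its mean was 2.24 over the arrays with HAB in Cy3, and 0.44 over those with HAB in Cy5, which did not pass on their own (adjusted p = 0.406). Its level was 9.41 to 11.90 in HAB and 9.02 to 10.48 in LAB, with overlap. Among the other regions it was also positive in the SON, at 1.53, and the CeA, at 0.89, and negative in the PVN, at -0.61. The other 3 Syt4 probes, of which 2 were above the empty spots on 9 channels of each line, were between -0.03 and 0.06. By qPCR and in situ hybridization, the study reports Syt4 as higher in HAB in the BLA, the CeA and the PVN. Klf9, a transcription factor induced by corticosteroids and thyroid hormone, read -0.05, 0.60 and 2.34 (0.87 ± 0.15, adjusted p = 0.041). Its mean was 1.59 over the arrays that carried HAB in Cy3, and 0.16 over those of the swapped dyes. A second Klf9 probe had a like value of 0.70 ± 0.19 that did not pass (adjusted p = 0.48), and the other 3 were between -0.06 and 0.10. Epc2, of the NuA4 acetyltransferase complex, was at 1.01 ± 0.17 (adjusted p = 0.029) but exceeded the empty spots on 1 channel of HAB and 0 of LAB. Over the arrays with HAB in Cy3 its mean was 0.50, and these did not pass limma on their own (adjusted p = 0.306). Its second probe, above them on 8 channels of each line, was at 0.03 ± 0.16. The Klf9 call stood only without HAB in Cy3 replicate 2 (adjusted p between 0.0822 and 0.149 for the other 9 arrays left out in turn). The Epc2 call stood only without HAB in Cy3 replicate 2 or 4 (0.0516 to 0.133 for the other 8).

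Probes that passed the size rule alone were weaker. Higher in HAB were Htra2, a mitochondrial protease, at 1.00 ± 0.22, and Uap1l1 at 0.64 ± 0.16. Htra2 was above the empty spots on 7 HAB channels and 1 LAB channel and was also positive in the other regions, from 0.26 to 1.65. Rpl41, a ribosomal protein, read 0.50 ± 0.15, and Mrpl16, of the mitochondrial ribosome, 0.51 ± 0.17. Lower in HAB, among others, was Mef2c, a transcription factor of excitatory neurons, at -0.43 ± 0.14 (levels 12.32 to 12.98 in HAB against 12.80 to 13.38 in LAB). Elavl2, a neuronal RNA-binding protein, was at -0.49 ± 0.14, Enpep, which cleaves angiotensin II, at -0.55 ± 0.16, and Axin2, a target of Wnt signaling, at -0.45 ± 0.14. None of these 8 passed limma (adjusted p between 0.25 and 0.62). Enpep was also below 0 in the PVN (-0.88), SON (-0.47), MeA (-0.40), NAc (-0.40) and CeA (-0.39), but not in the Cg (0.25). Mef2c was also below 0 in the CeA (-0.51), and between 0.03 and 0.45 in the remaining regions. Of all 38 probes lower by the size rule, 27 were above the empty spots in both lines, 5 in LAB alone and 6 in neither. Of the 13 higher, 7 were above them in both, 4 in HAB alone and 2 in neither.

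The BLA was then set against the other regions. In limma over all 70 arrays, the log2 HAB/LAB was above the mean of the other 6 regions for 10 probes (0.0438%) and below it for 29 (0.127%). Without HAB in Cy5 replicate 2, the first count was 5. Against the CeA, 125 probes differed (0.548%, 40 above and 85 below), and against the MeA 66 (0.289%, 22 above and 44 below). Of the 23 probes past limma in the BLA itself, 12 also passed against the other regions, 9 lower and 3 higher in HAB. For the other 11, the mean of every other region had the same direction in 10 and not in Epc2.

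Among the probes below the other regions were 2 of the 6 probes for Mbp, a main protein of central myelin. They differed by -0.66 ± 0.13 and -0.61 ± 0.13 (limma adjusted p = 0.0027 and 0.01). In the BLA itself both read -0.37 and neither passed, while in the Cg they were at 0.64 and 0.42. The second did not pass without HAB in Cy3 replicate 1 (adjusted p = 0.086) or HAB in Cy5 replicate 5 (0.055). The 13 genes of the myelin list above the empty spots in the BLA had a median of -0.19. Atp9a, a phospholipid flippase, was at -0.52 in the BLA and differed by -0.90 ± 0.13 (adjusted p = 5.2e-06). Ptgds, the prostaglandin D synthase of meninges, choroid plexus and oligodendrocytes, was at -0.50 and differed by -0.72 ± 0.14 (adjusted p = 0.0027). Egr1, an immediate early gene that marks recent neuronal activity, was level in the BLA, at -0.02 ± 0.16, and in the CeA, at -0.11, whereas it was positive in the other 5 regions, up to 1.19 in the MeA. Against the mean of the other 6 regions the BLA differed by -0.60 ± 0.13 (adjusted p = 0.0099). The Egr1 difference did not pass without HAB in Cy3 replicate 2 (0.075) or HAB in Cy5 replicate 5 (0.095).

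Above the other regions, apart from Syt4, Klf9 and Cnbp, were 4 probes named here. Msl1, of the MSL acetyltransferase complex, was at 0.86 ± 0.20 in the BLA (difference 1.06 ± 0.21, adjusted p = 0.005), and its other 3 probes were between 0.02 and 0.22. Ppp6r2, a subunit of protein phosphatase 6, differed by 1.04 ± 0.21 (adjusted p = 0.0044) and was not above the empty spots on any channel. Anapc16, of the anaphase-promoting complex, differed by 0.99 ± 0.21 (adjusted p = 0.013) and exceeded the empty spots on 1 channel of HAB and 2 of LAB. Tacc1, a protein of the centrosome, was at 0.53 ± 0.16 and differed by 0.67 ± 0.15 (adjusted p = 0.031). Of these 4 probes, only Tacc1 was above the empty spots on at least 5 channels of both lines. Anapc16 did not pass without HAB in Cy3 replicate 5 (0.15) or HAB in Cy5 replicate 2 (0.053), Klf9 without HAB in Cy3 replicate 5 (0.098), and Tacc1 without any of 6 arrays, of HAB in Cy3 replicates 1, 4 and 5 and HAB in Cy5 replicates 1, 2 and 4 (0.076 to 0.19).

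Most genes of the neuronal and metabolic groups lay close to 0, and so did most probes above the empty spots. The 28 lists held 703 genes, of which 558 were on the array. In 365 the brightest probe was above the empty spots, and 328 of these lay within 1.3-fold. Of all 11451 probes above the empty spots, 10778 did. A gene bright enough in 1 line alone could be counted here. Either rule called 13 list genes by any of their probes. It called 56 of all 22824 probes (0.245%), which is a count of probes and not of genes. Of the 13 list genes, 8 were candidates that the study chose in part on these samples. The other 5 were Enpp2, Klf9, Mef2c, Rpl41 and Glo1. Of the glutamate receptors and scaffolds, 5 of 8 were above 0, with a median of 0.11, and the largest was the scaffold Dlg1, at 0.53 ± 0.25. Of the GABA genes, 8 of 10 were below 0, with a median of -0.08, and Gad1, which makes GABA, was at -0.32 ± 0.13. No gene of either group was called.

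Neuropeptides ranged from -0.39 for Tac1, the precursor of substance P, to 0.30 for Sst, with 6 above and 9 below 0. The glucocorticoid-induced genes Sgk1, Per1 and Tsc22d3 of the stress axis list were at 0.23 ± 0.17, 0.22 ± 0.15 and 0.20 ± 0.18. The list's 9 genes had a median of 0.09 and none was called. Of 25 fear and plasticity genes, 15 were below 0, with Prkca lowest at -0.55 ± 0.17. Of 6 monoamine genes, 5 were below 0, and the serotonin receptor Htr1a was at -0.49 ± 0.29 over a range of -2.17 to 1.59. Of 30 genes of vesicle release, 17 were above 0. Syt4 was the one called among them, on a probe other than its brightest, and Syt11 was at 0.61 ± 0.17.

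Cytosolic ribosomal proteins were above 0 in 40 of 62 genes, with a median of 0.08, and Rpl41 alone was called. Oxidative phosphorylation had 23 above and 26 below 0, with a median of -0.01. The 15 lysosomal genes had a median of -0.17 and none was called, with Ctss, a cathepsin of microglia, lowest at -0.58 ± 0.14. Ctss was also the lowest of the 6 microglial genes, whose median was -0.16. The mean level of the microglial list was lower in HAB on 9 of 10 arrays, from 9.03 to 10.62 in HAB against 9.20 to 10.62 in LAB. Astrocytes had a median of 0.01 over 15 genes and endothelium 0.08 over 9.

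**Figure D5:**
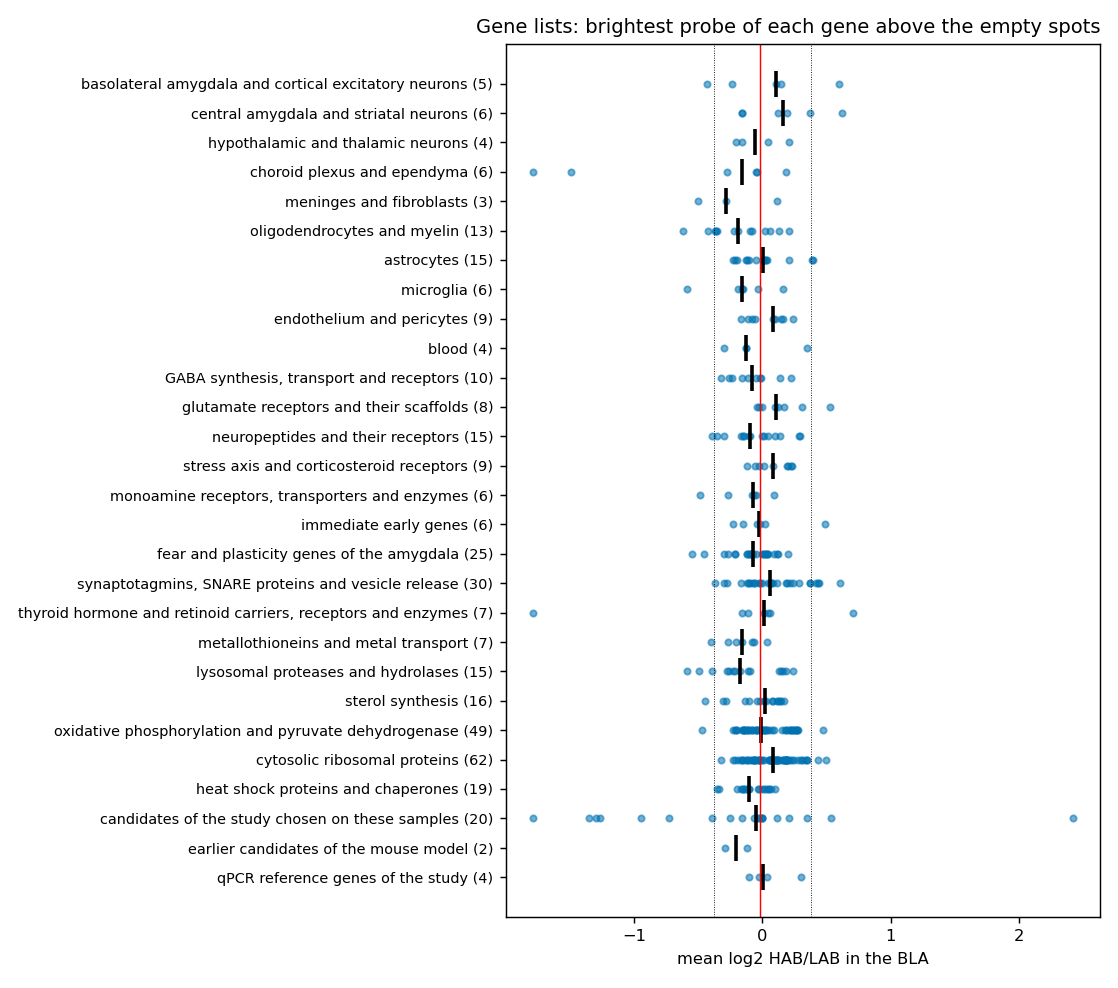
Mean log2 HAB/LAB in the BLA of each list gene (points), by its brightest probe above the empty spots, with the number of genes in brackets. Black bars are list medians, the red line is the median of all probes above the empty spots (-0.0167), and dotted lines mark 1.3-fold. Of the 365 genes drawn, 328 lie within 1.3-fold and 37 outside it, 9 of them candidates chosen on these samples. Of all 11451 probes above the empty spots, 10778 lie within 1.3-fold.

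Candidates for follow-up were chosen by the study in part on these samples, so their direction here is no independent evidence. Of 33 candidate genes, 26 were measured and 20 were above the empty spots. Limma called 2 higher (Rab6a and Syt4) and 5 lower (Ttr, Slc25a17, Mff, Mmp15 and Zfp672). The size rule called 1 higher (Rab6a) and 6 lower, which were the same 5 and Cfap36. Ctsb, a lysosomal cysteine protease, had 4 probes at 0.74 ± 0.23, 0.12 ± 0.34, 0.07 ± 0.18 and -0.39 ± 0.17. The last, the only one above the empty spots on at least 5 channels of a line, was lower in HAB on 7 of 10 arrays. Stx3, a syntaxin of the plasma membrane, was at 0.14 ± 0.21 and 0.00 ± 0.18 on its 2 probes. The study reports Stx3 as higher in HAB on its arrays but with the opposite direction by qPCR, which it repeated in the BLA. Mt1, a metallothionein, was at -0.16 ± 0.14 in the BLA and between -1.30 and -0.35 in the other regions (difference 0.59 ± 0.15, limma adjusted p = 0.085). Of the qPCR reference genes, Atp2b1, Gapdh, Hprt and Rpl13a were measured, and the brightest probe of each was between -0.11 and 0.30. None was called.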

How the data were processed

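Pooled total RNA was amplified in a pair of rounds (oligo-dT, then random hexamers) and hybridized to MPIP24k cDNA arrays, which were scanned and quantified in QuantArray with fixed circles. Per the file headers, the deposited values are raw spot intensity and background intensity per channel for 24192 spots in 48 print-tip blocks. These held 22824 probes, 1170 empty spots and 198 control spots. The deposited series table holds log2 ratios that the authors normalized (globally, then LOESS). Set against the scanner values it ran as HAB over LAB with column medians near 0, and its centring was otherwise not stated. It served as an alternative only. Other deposited columns (spot position, shape and quality values) were read for layout or not used.

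In limma 3.58.1 (R 4.3.3) intensities were background corrected (normexp, offset 50), normalized by loess (span 0.4, control and empty spots with weight 0) and centred on block medians. 70% of BLA background values were 0. Levels are Aquantile-normalized single channels. The BLA fit held an intercept and a dye term over 10 arrays. The fit against other regions held all 70 arrays with a dye term per region, and it shares 1 spread over regions. "Above the empty spots" means above their median plus 2 MAD. Probe names were those of the array's design. A current symbol was paired with 7848 probes (5401 symbols), 6954 of them by an identifier, through the RefSeq gene table of mouse. The remaining 12816 named probes kept their name, and 2160 had none. Named were probes past limma in the BLA, the largest by the size rule and against other regions, called or leading list members, study candidates, reference genes and the other probes of each such gene. Probes named beyond this rule (Elavl2, Enpep, Axin2, Orc3, Atp9a, Mbp, Egr1, Tacc1, Sst, Tsc22d3, Psmd1, Cntd1 and MGC29044) were chosen after their values were seen. The members and lists were chosen with earlier results of these data known. Dye was read from the image name for 2 BLA arrays. No 2 arrays held identical values in a channel, and no columns of other series were present. Code was tested on simulated data, in Python 3.11.15 and R. Alternatives covered normalization, filtering, dye orientation, header date, the replicate block and leaving out each array. The number of arrays limits the precision.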

Additional observations from a re-analysis of the deposited data

Results flagged for a closer look

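For 10 of 112 sets of 5 arrays with the same dye orientation (56 called probes), 1 array stood apart from the other 4 by Dixon's criterion at 0.71. Chance sets apart about 1 in 20 such sets. HAB in Cy3 replicate 5 did so for 4 probes: Ttr (-3.91, with the others between -3.46 and -3.31), Glo1 (-1.88, others -0.914 to -0.583), Psmd1 (-0.617, others -0.162 to -0.101) and Sumo2 (0.954, others 1.81 to 2.11). HAB in Cy5 replicate 5 did so for 3: the second Ttr probe (-4.21, others -2.41 to -1.99), Orc3 (-1.61) and Snhg9 (2.42). The remaining 3 were Cntd1 on HAB in Cy3 replicate 3 (0.925), Mrpl16 on HAB in Cy3 replicate 2 (1.86) and the hypothetical protein MGC29044 on HAB in Cy5 replicate 3 (-1.46).

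The log2 HAB/LAB of the BLA differed from the mean of the other 6 regions, by limma over 70 arrays, for 39 probes, of which 18 either were called in the BLA itself or were among the largest of these differences. The differences were -3.13, -2.77 and -1.85 for Ttr, -2.62 for AI840405, -2.33 for Clec11a and -1.75 for Erh. They were -1.71 for the unnamed EST, -1.63 and -1.06 for Enpp2, -0.997 for Ints1 and -0.837 for Orc3. Above the other regions were Cnbp (0.626), Klf9 (0.745), an IMAGE clone without a gene name (0.873), Anapc16 (0.99), Ppp6r2 (1.04), Syt4 (1.04) and Msl1 (1.06). Orc3 did not pass without HAB in Cy5 replicate 5 (adjusted p = 0.083), and the IMAGE clone was lost when any of 5 arrays was left out (0.067 to 0.14).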

How the results depend on the processing

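Of the 23 probes past limma, leaving out 1 array at a time lost between 2 and 5. Over these 10 settings the size rule gave 21 to 35 higher, 49 to 58 lower and 12 to 16 list genes (against 13, 38 and 11), since 9 arrays then had to agree. Limma gave 6 to 9 higher and 12 to 15 lower (against 8 and 15). Against the other regions, 5 to 12 probes lay above (10) and 23 to 32 below (29), 107 to 134 differed from the CeA (125) and 46 to 71 from the MeA (66). The median level of the 5 excitatory markers above the empty spots, BLA minus other regions, stayed between 0.3204 and 0.4559 (0.3785). Loess without block medians gave 27 higher by the size rule, 5 above and 19 below the other regions, 82 against the CeA and 38 against the MeA. Median centring gave 34 higher and 17 lower by the size rule, 3 above, 17 below, 196 and 29. The authors' value table, with 9291 probes complete in the BLA and 4180 over all regions, gave 22 lower by the size rule, 20 higher by limma, 37 above, 56 below, 203 and 210. In it Mturn, at -0.42 otherwise, was at 0.00751, the only called probe to change sign under any setting. A probe past the size rule could not change sign under settings that only dropped arrays. Restricting to probes above the empty spots gave 105 against the MeA. Same-numbered arrays did not deviate together (r between 0.00734 and 0.0443, and 0 of 5 closest to its own number), so the numbers do not pair the samples. With the replicate number as a block, limma gave 6 higher and 11 lower, 6 above, 22 below, 82 against the CeA and 30 against the MeA. Header date 1 alone (7 arrays) gave 101 higher, 129 lower and 21 list genes by the size rule and 40 against the MeA. Header date 2 alone (3 arrays) gave 1478, 1732 and 115 by the size rule. By limma it gave 0 higher and 0 lower (581 and 534 at an unadjusted p under 0.05), 0 above (494 unadjusted), 8 below, 16 against the CeA and 8 against the MeA. A date block was not possible between regions, since no BLA date is shared. HAB in Cy3 alone gave 1896 higher, 1736 lower and 140 list genes by the size rule, 7 lower by limma, 41 above, 44 below, 25 and 268. HAB in Cy5 alone gave 1488, 2055 and 144, 42 higher and 54 lower by limma, 112 above, 229 below, 53 and 723. With 1 orientation alone, dye and line cannot be told apart. A 1.5-fold rule gave 6 higher and 21 lower, and 9 of 10 arrays gave 135, 155 and 24 list genes. The CeA and MeA alone as the reference gave 17 above and 54 below. The cause of these shifts was not tested. With a median SE of 0.185, limma called no difference under 0.875.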

Other observations

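Another 4 probes lower in HAB by the size rule in the BLA shared their values over the regions. These were Pcid2, Mturn, Chtf18 and Pamr1, with log2 HAB/LAB between -0.46 and -0.42 in the BLA. All 4 were higher in HAB in the CeA (0.55 to 0.77), near 0 in the MeA (-0.05 to 0.10), and lower in the NAc (-1.26 to -1.04) and the Cg (-0.90 to -0.81). Whether these spots hold different inserts was not tested, so they may not be 4 separate signals. They were chosen after their values were seen, and no test was run on their likeness.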
